A study of Homo sapiens with 6 samples.

Results

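The genes described here code for the proteasome: the rings of its core particle, the base and lid of its regulatory particle, its activators and inhibitor, and the chaperones that put it together. They were chosen by name, as symbols that start with PSMA, PSMB, PSMC, PSMD, PSME, PSMF or PSMG and a digit, plus POMP, which gave 49 of the 18806 symbols measured. One of the 49, PSMC3IP, is a meiotic recombination factor named after a subunit and not a proteasome part, and is kept apart. Transcript levels came from poly(A)-selected RNA of Mono-mac-6 cells, which derive from a human acute myeloid leukaemia and carry the MLL-AF9 fusion gene. All cells derived from a single Cas9-expressing clone and received 1 lentiviral guide RNA, sgMETTL1.3 or sgMETTL1.6, which target METTL1, the catalytic subunit of a tRNA N7-methylguanosine methyltransferase, or the control guide sgNS. Selection was in 10 µg/ml of blasticidin together with 200 µg/ml of hygromycin B in every group, and cells were taken about 8 to 10 days after transduction. Each group had 2 libraries. The sources used here do not say whether these were separate cultures, so p-values measure only the spread between the libraries. All guides were tested in 1 clone, so clone and line cannot be told apart.

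The proteasome is the main protease for proteins tagged with ubiquitin. Its core is a barrel of stacked rings: outer rings of alpha subunits gate the entrance, and inner rings of beta subunits carry the active sites, which between them cleave after hydrophobic, acidic or basic residues. The regulatory particle caps the barrel, with a base whose ATPases unfold the substrate and a lid that removes its ubiquitin. In blood cells, interferon-induced beta subunits replace the constitutive catalytic ones to make the immunoproteasome, which supplies peptides for presentation on class I molecules. Proteasome genes are known to be raised together by the transcription factor NFE2L1 when proteasome activity is short.

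TPM, the deposited unit, is a relative level per transcript length whose sum is fixed in each library, and it does not carry the read depth, which is unknown. METTL1 itself had 18.3 and 16.6 TPM for sgMETTL1.3, 11.2 and 11.7 for sgMETTL1.6, and 15.4 and 13.9 for sgNS. Its level was thus higher in both libraries labelled sgMETTL1.3 than in the sgNS libraries (log2 difference 0.24, limma adjusted p = 0.011) and lower in both labelled sgMETTL1.6 (-0.33, adjusted p = 0.0017). The first of these calls was lost without sgMETTL1.3 replicate 1 or sgNS replicate 2 (adjusted p = 0.12 each) and without the filter (0.057). Over both guides it did not pass (-0.047, adjusted p = 0.53; exact two-sided permutation p = 1, where the smallest value that 15 splits allow is 0.133). TPM does not read insertions or deletions, so these values check mRNA level and not the edit. Of 11 myeloid markers, CD33 (48.8 to 51.2 TPM) and LYZ (9206 to 11419 TPM) were present in every library, while CD14 and CSF1R, which define mature monocytes, stayed under 1 TPM. Of the 9 tested, 3 rose over both guides, S100A9 most (log2 change 0.48), 5 fell and 1 did not pass. Among those that fell were ITGAM (-0.64), MPO (-0.47), FLT3 (-0.40) and LYZ (-0.14). The 11 summed to 21879.5 to 22387 TPM for sgMETTL1.3, 18455 to 18690.2 for sgMETTL1.6 and 19621 to 20217 for sgNS. The 3 T-cell markers were at 0 throughout. Summed B-cell markers reached at most 1.71 TPM, megakaryocyte markers 0.62 TPM, fibroblast markers 0.22 TPM and erythroid markers 0.03 TPM. The 4 epithelial markers, nearly all KRT18, summed to 12.8 to 13.5 TPM for sgMETTL1.3, 13.2 to 13.3 for sgMETTL1.6 and 17.0 to 17.1 for sgNS, and the part of either list in the results was not tested. In these bulk samples, fewer cells of a type and less RNA per cell cannot be told apart.

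Most proteasome transcripts were modestly higher in the METTL1-guide libraries than in sgNS libraries. Of 47 proteasome-named genes tested, 26 rose and 6 fell over both guides, and 15 did not pass limma's test at a Benjamini-Hochberg adjusted p under 0.05. The 26 were 55.3% of the genes tested, against 32.6% of all 10911 genes called higher in the same comparison. The 6 were 12.8%, against 26.8% of all genes called lower. Since 59.4% of all genes passed, a single call here is common, and the spread of directions over the classes of subunits is what the values below describe. The median log2 change of the 47 was 0.16, against 0.023 for all genes. For 27 of the 47 every guide library stood above both sgNS libraries, for 6 every one stood below, and for 14 the groups overlapped, while 32.9% of all genes stood wholly above and 27.3% wholly below. The other 2 genes were outside the test, which required a mean of 1 TPM: PSMA8, the alpha subunit of the testis, was listed at 0 in every library, and PSMB11, the beta subunit of the thymus, was listed at 0.02 TPM in sgNS replicate 2 and at 0 elsewhere.

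**Figure D1:**
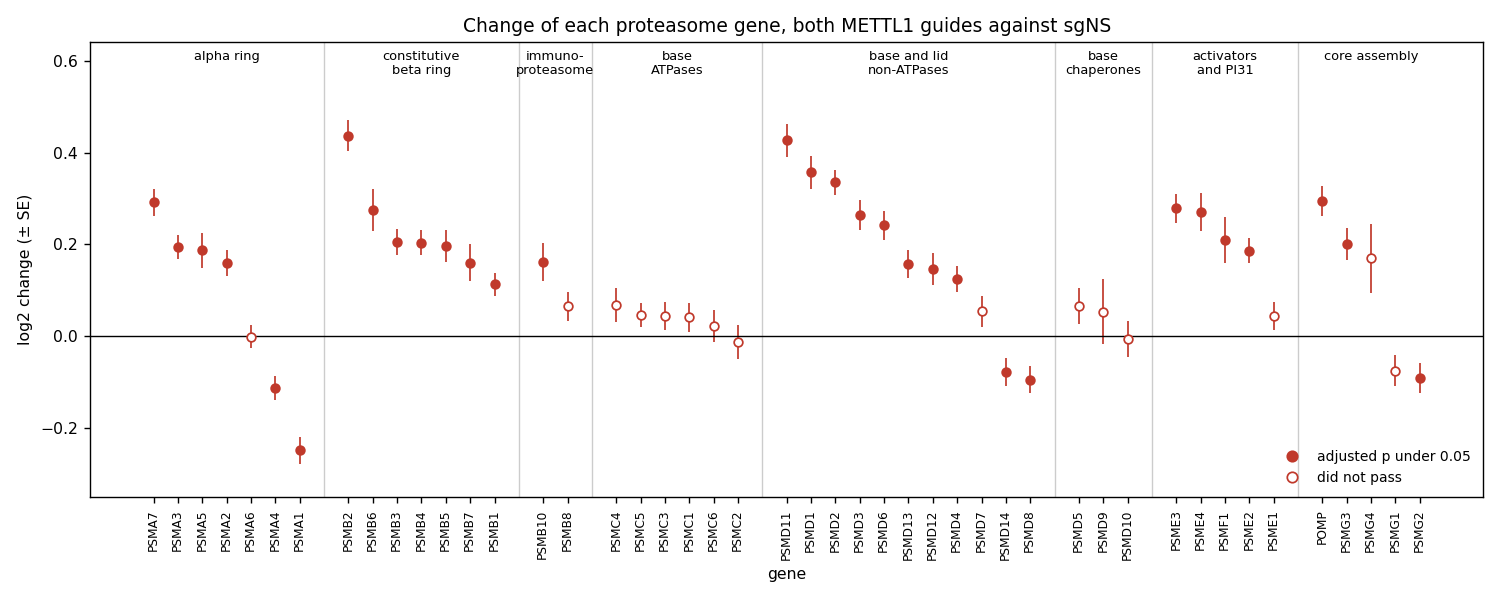
Log2 change over both METTL1 guides against sgNS, on the log2(TPM + 1) scale, with its standard error, for each proteasome gene tested except PSMC3IP, grouped by role. Filled points passed an adjusted p under 0.05: all 7 constitutive beta subunits lie above 0 and are filled, and all 6 base ATPases are open and lie near 0.

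The sum over the proteasome genes chosen by symbol, which leave out the lid subunit SEM1, was 10001 and 10066 TPM for sgMETTL1.3, 9872 and 9948 for sgMETTL1.6, and 9167 and 9208 for sgNS. Every guide library thus stood above both sgNS libraries, and the mean was 8.54% higher. Rescaling moved this ratio from 1.09 to 1.07 with median-ratio or quantile scaling and to 1.06 without ribosomal protein genes. The sums of the classes moved by different amounts. Constitutive beta subunits summed to 2334 and 2411 TPM for sgMETTL1.3, 2304 and 2373 for sgMETTL1.6, and 2042 and 2083 for sgNS. Base ATPases summed to 1361 and 1343 TPM for sgMETTL1.3, 1283 and 1291 for sgMETTL1.6, and 1288 and 1279.5 for sgNS, so the sgMETTL1.6 and sgNS libraries overlapped. Non-ATPase subunits of base and lid over base ATPases gave a ratio of 1.47 and 1.48 for sgMETTL1.3, 1.48 and 1.47 for sgMETTL1.6, and 1.35 and 1.37 for sgNS, higher in every guide library. Subunits of 1 ring, present once each per ring in the assembled particle, differed widely in transcript level. In sgNS libraries the beta ring ran from PSMB2 at 74.2 TPM to PSMB4 at 664 TPM, 8.95-fold apart, and the base ATPases from PSMC2 at 104 TPM to PSMC5 at 361 TPM, 3.48-fold apart. Level and change were weakly related across 46 genes of the same libraries (Pearson r = -0.141, given as a description).

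**Figure D2:**
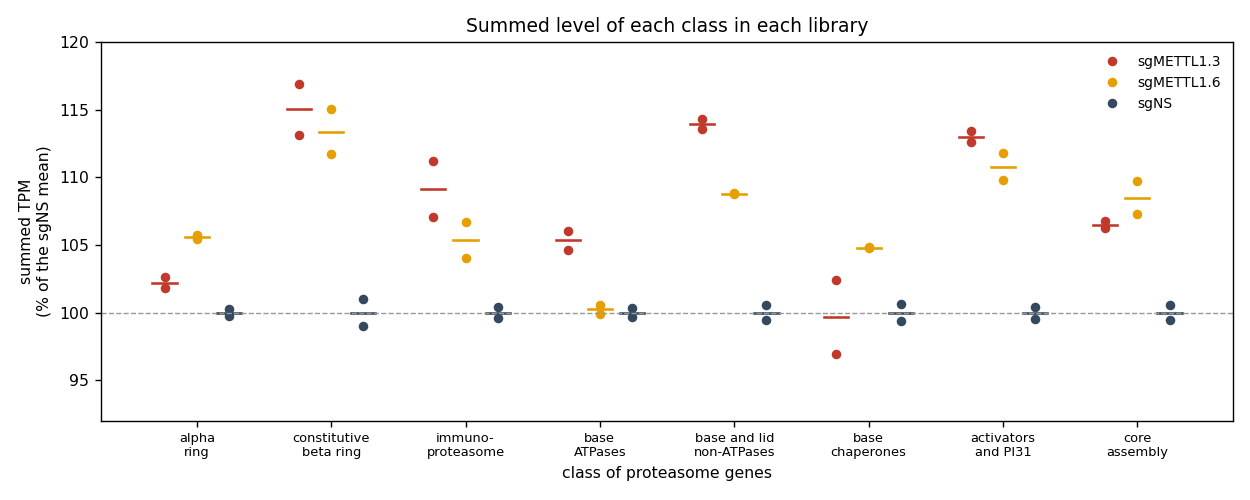
Summed TPM of each class of proteasome genes in each library, with sgMETTL1.3, sgMETTL1.6 and sgNS libraries from left to right as a percentage of the sgNS mean; bars are group means. All 4 guide libraries exceed both sgNS libraries for every class except the base ATPases and the base chaperones.

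Over both guides 32.6% of all genes rose and 26.8% fell. In the alpha ring, 4 of 7 subunits (57.1%) rose, 2 (28.6%) fell and 1 did not pass. PSMA7 rose most among them: it had 487 and 511 TPM for sgMETTL1.3, 489.9 and 512 for sgMETTL1.6, and 405 and 411 for sgNS, all guide libraries above both controls (log2 change 0.29 ± 0.030 SE, adjusted p = 2.6e-06). PSMA3 had 351 and 358 TPM for sgMETTL1.3, 362 and 357 for sgMETTL1.6, and 312 and 311 for sgNS (log2 change 0.20 ± 0.026 SE, adjusted p = 3.5e-05). PSMA2 and PSMA5 rose by 0.16 and 0.19 on the log2 scale. PSMA1 went the other way, with 260.0 and 248 TPM for sgMETTL1.3, 256 and 251 for sgMETTL1.6, and 305 and 298 for sgNS, every guide library below both controls (log2 change -0.25 ± 0.030 SE, adjusted p = 1.2e-05; ENSG00000129084.17, chr11:14504874-14643635). PSMA4 also fell, by less, with 454 and 448 TPM for sgMETTL1.3, 448 and 439 for sgMETTL1.6, and 489 and 479 for sgNS (log2 change -0.11 ± 0.026 SE, adjusted p = 0.0021). These subunits sit in the same ring, so its parts moved in both directions. PSMA6 had 417 and 422 TPM for sgMETTL1.3, 482 and 479.9 for sgMETTL1.6, and 449 and 449.8 for sgNS; the sgMETTL1.3 libraries were below the controls and the sgMETTL1.6 libraries above them, and the mean over both guides was level (log2 change -0.0012 ± 0.025 SE, adjusted p = 0.97). GENCODE lists 4 pseudogenes named after PSMA6 and 3 after PSMA2, with which RSEM can share reads, so their values are less certain.

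The window of 250 bases before the start of PSMA1, the alpha subunit that fell most, lies at chr11:14520387-14520636 on the minus strand, from RefSeq on GRCh38.p14. None of the motifs searched, which are given with their counts further on, was in it.
PSMA1: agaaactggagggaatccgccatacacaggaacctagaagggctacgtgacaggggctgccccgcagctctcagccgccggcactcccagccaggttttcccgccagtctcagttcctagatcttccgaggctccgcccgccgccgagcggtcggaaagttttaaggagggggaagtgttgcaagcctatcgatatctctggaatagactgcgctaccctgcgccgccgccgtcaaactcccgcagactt

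All 7 constitutive beta subunits rose over both guides, and all 7 passed with each guide alone. Of all genes, 32.6% were called higher over both guides, 34.3% with sgMETTL1.3 and 25.7% with sgMETTL1.6. These comparisons share the same sgNS libraries, so they are not independent of each other. With sgMETTL1.3 alone the call of PSMB1 was lost with median-ratio scaling (adjusted p = 0.073), without ribosomal protein genes (0.096) and without the variance trend (0.062), and that of PSMB7 without the filter (0.051), sgMETTL1.3 replicate 2 (0.057) or sgNS replicate 1 (0.0503). With sgMETTL1.6 alone that of PSMB7 was lost without the filter (0.12), the trend (0.11), sgMETTL1.6 replicate 2 (0.21) or sgNS replicate 1 (0.16), and that of PSMB5 without sgNS replicate 1 (0.055). Positions of genes are those of GENCODE 29 on GRCh38. PSMB2, a structural subunit without an active site, had the largest rise of any proteasome part, with 101 and 98.8 TPM for sgMETTL1.3, 101 and 102 for sgMETTL1.6, and 74.1 and 74.2 for sgNS (log2 change 0.44 ± 0.033 SE, adjusted p = 1.8e-07; ENSG00000126067.11, chr1:35599544-35641844). Its guide libraries lay well clear of both controls and close to each other. PSMB3, a structural neighbour, had 389 and 402 TPM for sgMETTL1.3, 402 and 398 for sgMETTL1.6, and 340.4 and 349 for sgNS (log2 change 0.21 ± 0.028 SE, adjusted p = 3.2e-05). PSMB4, the most abundant subunit of all, had 768 and 789 TPM for sgMETTL1.3, 731 and 772 for sgMETTL1.6, and 660.2 and 668 for sgNS (log2 change 0.20 ± 0.028 SE, adjusted p = 3.3e-05). PSMB1 rose least, by 0.11 (adjusted p = 0.0015). The active subunits moved alike in direction. PSMB5, which cleaves after hydrophobic residues, had 185 and 195 TPM for sgMETTL1.3, 184 and 181 for sgMETTL1.6, and 158 and 167 for sgNS (log2 change 0.20 ± 0.034 SE, adjusted p = 0.00030). PSMB6, which cleaves after acidic residues, had 100 and 113 TPM for sgMETTL1.3, 105 and 103 for sgMETTL1.6, and 84.5 and 88.9 for sgNS (log2 change 0.28 ± 0.046 SE, adjusted p = 0.00018). PSMB7, which cleaves after basic residues, had 307 and 328 TPM for sgMETTL1.3, 295 and 323 for sgMETTL1.6, and 274 and 286 for sgNS (log2 change 0.16 ± 0.040 SE, adjusted p = 0.0037). All guide libraries exceeded both controls for each of the 3, but the call of PSMB7 was lost without sgNS replicate 1 (adjusted p = 0.064).

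Windows of 250 bases before the start are shown for the beta subunit with the largest rise and for one that holds TGACNNNGC, the core of the antioxidant response element that NFE2L1 and NFE2L2 are known to bind, in capitals. That of PSMB2 lies at chr1:35641527-35641776 on the minus strand and that of PSMB3 at chr17:38752491-38752740 on the plus strand (RefSeq, GRCh38.p14).
PSMB2: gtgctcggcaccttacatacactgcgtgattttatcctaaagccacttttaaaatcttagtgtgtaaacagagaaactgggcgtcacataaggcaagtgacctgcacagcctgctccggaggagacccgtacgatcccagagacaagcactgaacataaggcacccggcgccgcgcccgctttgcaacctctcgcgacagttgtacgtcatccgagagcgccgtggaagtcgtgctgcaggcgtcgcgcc
PSMB3: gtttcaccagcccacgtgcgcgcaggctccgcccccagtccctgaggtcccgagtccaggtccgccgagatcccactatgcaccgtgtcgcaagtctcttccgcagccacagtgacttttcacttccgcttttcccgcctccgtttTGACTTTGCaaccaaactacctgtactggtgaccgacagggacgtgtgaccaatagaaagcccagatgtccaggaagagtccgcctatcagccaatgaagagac
The PSMB2 window held no match to that motif. A match is a description of letters and not of a bound site.

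Of the 2 immunoproteasome subunits analysed here, PSMB10 rose and PSMB8 did not pass; the class is not analysed here in full. PSMB8, the interferon-induced counterpart of PSMB5, had 178 and 182 TPM for sgMETTL1.3, 174 and 177 for sgMETTL1.6, and 166 and 174 for sgNS, so that the sgMETTL1.6 range began just below the higher control (log2 change 0.065 ± 0.032 SE, adjusted p = 0.096, not passed). PSMB10, the counterpart of PSMB7, had 103 and 109.9 TPM for sgMETTL1.3, 98.9 and 104 for sgMETTL1.6, and 95.9 and 89.4 for sgNS (log2 change 0.16 ± 0.041 SE, adjusted p = 0.0042). Its call was lost without sgNS replicate 2 (adjusted p = 0.093). The ratio of PSMB8 to PSMB5 was 0.964 and 0.934 for sgMETTL1.3, 0.947 and 0.977 for sgMETTL1.6, and 1.05 and 1.04 for sgNS, below both controls in every guide library. For PSMB10 over PSMB7 it was 0.335 and 0.335 for sgMETTL1.3, 0.335 and 0.321 for sgMETTL1.6, and 0.350 and 0.312 for sgNS; the guide libraries fell inside the range of the controls. No test of these ratios was made.

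The PSMB10 window, at chr16:67936851-67937100 on the minus strand (RefSeq, GRCh38.p14), is shown since it holds the core of the interferon-stimulated response element, in capitals.
PSMB10: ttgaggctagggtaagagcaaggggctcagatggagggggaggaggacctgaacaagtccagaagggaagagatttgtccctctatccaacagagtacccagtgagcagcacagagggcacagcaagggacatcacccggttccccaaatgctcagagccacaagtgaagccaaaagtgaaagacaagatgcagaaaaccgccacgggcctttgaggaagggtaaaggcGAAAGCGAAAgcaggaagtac

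**Figure D3:**
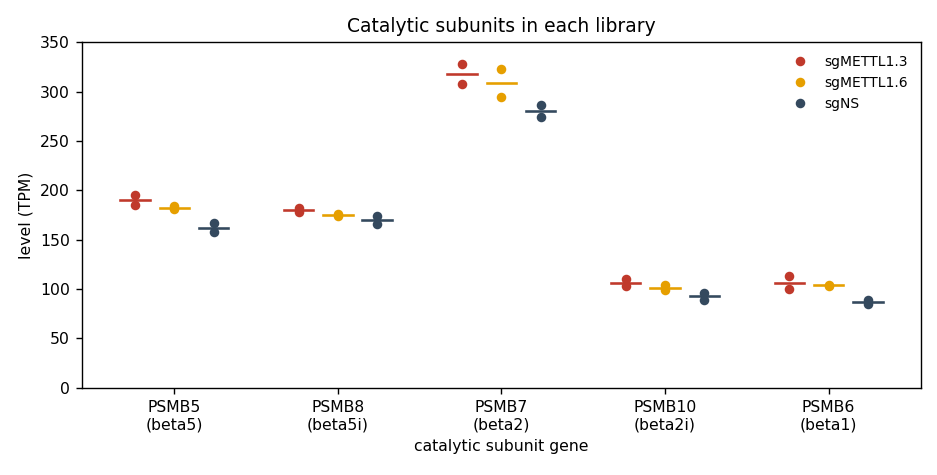
TPM of the catalytic beta subunits in each library, with sgMETTL1.3, sgMETTL1.6 and sgNS from left to right and the group mean as a bar. For PSMB5, PSMB6 and PSMB7 all 4 guide libraries exceed both sgNS libraries, whereas PSMB8 overlaps them.

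None of the 6 base ATPases passed over both guides, where 59.4% of all genes did. Their median log2 change was 0.043, close to the 0.023 of all genes. These are the motors that pull the substrate apart. PSMC4 had 114 and 116 TPM for sgMETTL1.3, 102 and 111 for sgMETTL1.6, and 105 and 106 for sgNS (log2 change 0.068 ± 0.037 SE, adjusted p = 0.14). PSMC5 had 385 and 380.1 TPM for sgMETTL1.3, 359 and 368 for sgMETTL1.6, and 358 and 364 for sgNS (log2 change 0.046 ± 0.027 SE, adjusted p = 0.16), and PSMC3 had 296 and 303 TPM for sgMETTL1.3, 276 and 292 for sgMETTL1.6, and 284 and 282 for sgNS (log2 change 0.044 ± 0.030 SE, adjusted p = 0.23). In each of these 3 the guide and control libraries overlapped. PSMC1, PSMC2 and PSMC6 had log2 values of 0.041, -0.013 and 0.023; GENCODE lists 13 pseudogenes named after PSMC1, whose value is less certain. PSMC4 passed when sgMETTL1.6 replicate 1 was left out (adjusted p = 0.029). With sgMETTL1.3 alone PSMC4 and PSMC5 passed (0.12 and 0.083), against 34.3% of all genes called higher in that comparison; both calls were lost with median-ratio and quantile scaling, without ribosomal protein genes, without limma's variance trend and without any 1 of the 4 libraries compared. With sgMETTL1.6 alone none of the 6 passed, where 51.0% of all genes did.

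The non-ATPases of base and lid held the other large rises: 8 of 11 (72.7%) rose, 2 (18.2%) fell and 1 did not pass. Of all genes, 32.6% rose and 26.8% fell. PSMD11, a lid subunit that clamps lid to core, had 77.1 and 79.5 TPM for sgMETTL1.3, 72.9 and 73.8 for sgMETTL1.6, and 55.8 and 56.5 for sgNS (log2 change 0.43 ± 0.036 SE, adjusted p = 4.3e-07). The base scaffolds followed. PSMD1 had 150.3 and 143 TPM for sgMETTL1.3, 135 and 127 for sgMETTL1.6, and 107 and 109 for sgNS (log2 change 0.36 ± 0.036 SE, adjusted p = 2.7e-06). PSMD2 had 315 and 316 TPM for sgMETTL1.3, 293 and 293 for sgMETTL1.6, and 236 and 245 for sgNS (log2 change 0.33 ± 0.028 SE, adjusted p = 4.5e-07). In all 3 genes the 4 guide libraries lay clear above both controls, with the sgMETTL1.3 libraries highest. PSMD3 and PSMD6, both lid subunits, rose by 0.26 and 0.24, and PSMD12 and PSMD13, also of the lid, by 0.15 and 0.16. PSMD4, a base subunit that receives ubiquitin chains, rose by 0.12 (adjusted p = 0.0021), a call lost without sgNS replicate 1 (log2 change 0.098). With sgMETTL1.6 alone it did not pass limma's test (adjusted p = 0.057), nor with only the groups compared (0.052). The lid also held the falls. PSMD14, the enzyme that cuts ubiquitin from the substrate, had 159 and 159 TPM for sgMETTL1.3, 155 and 154 for sgMETTL1.6, and 169 and 162 for sgNS, below both controls in every guide library (log2 change -0.078 ± 0.031 SE, adjusted p = 0.046). It passed limma's test with sgMETTL1.6 alone (adjusted p = 0.034) but not with sgMETTL1.3 alone (0.20). Its partner PSMD7 had a log2 value of 0.054 and did not pass (adjusted p = 0.17). PSMD8, a lid subunit that joins late in assembly, had 214 and 221 TPM for sgMETTL1.3, 212 and 216 for sgMETTL1.6, and 231 and 230.3 for sgNS (log2 change -0.094 ± 0.029 SE, adjusted p = 0.014). Without limma's variance trend neither PSMD14 (adjusted p = 0.12) nor PSMD8 (0.066) passed. With only the groups compared they did not pass either (0.15 and 0.068). Both falls were small, and both calls were lost without sgNS replicate 1 (adjusted p = 0.38 for PSMD14 and 0.085 for PSMD8). That of PSMD14 was also lost without any 1 of the guide libraries (0.057 to 0.091), and that of PSMD8 without sgNS replicate 2 (0.073).

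The PSMD3 window, at chr17:39980557-39980806 on the plus strand (RefSeq, GRCh38.p14), holds TGACNNNGC, in capitals. Genes that did not pass or fell hold the motif too, as listed further on, and its link with direction was not tested.
PSMD3: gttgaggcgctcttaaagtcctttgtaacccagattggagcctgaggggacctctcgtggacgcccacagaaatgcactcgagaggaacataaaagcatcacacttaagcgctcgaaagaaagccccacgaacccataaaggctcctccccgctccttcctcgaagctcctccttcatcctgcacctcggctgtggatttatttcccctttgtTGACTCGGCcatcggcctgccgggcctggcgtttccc

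The 3 base chaperones, which escort the ATPases into the base and leave the finished particle, did not pass over both guides. Of all genes, 59.4% did. PSMD5 had 44.8 and 45.4 TPM for sgMETTL1.3, 44.3 and 42.7 for sgMETTL1.6, and 42.4 and 42.2 for sgNS (log2 change 0.065 ± 0.039 SE, adjusted p = 0.17); all 4 guide libraries stood above both controls by little. PSMD9, the least abundant of all proteasome genes tested, had 18.6 and 15.2 TPM for sgMETTL1.3, 16.7 and 18.4 for sgMETTL1.6, and 16.6 and 16.4 for sgNS (log2 change 0.054 ± 0.071 SE, adjusted p = 0.54). PSMD10 had 56.2 and 52.6 TPM for sgMETTL1.3, 61.3 and 61.2 for sgMETTL1.6, and 58.5 and 57.3 for sgNS (log2 change -0.0053 ± 0.040 SE, adjusted p = 0.92); it is the oncoprotein gankyrin, and its sgMETTL1.3 libraries lay below the controls and its sgMETTL1.6 libraries above them. GENCODE lists 3 pseudogenes named after PSMD10.

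Among the activators, which can replace the regulatory particle at the end of the core, 3 of 4 rose, where 32.6% of all genes did. PSME3, the nuclear activator, had 148 and 144 TPM for sgMETTL1.3, 139 and 138 for sgMETTL1.6, and 116 and 119 for sgNS (log2 change 0.28 ± 0.032 SE, adjusted p = 7.2e-06). PSME4, a large single-chain activator, had 80.6 and 78.0 TPM for sgMETTL1.3, 73.9 and 69.7 for sgMETTL1.6, and 60.5 and 64.3 for sgNS (log2 change 0.27 ± 0.041 SE, adjusted p = 8.5e-05). PSME1 and PSME2 form 1 interferon-induced ring together, but only PSME2 passed. PSME2 had 389 and 380.0 TPM for sgMETTL1.3, 369 and 379 for sgMETTL1.6, and 331 and 336 for sgNS (log2 change 0.19 ± 0.027 SE, adjusted p = 6.6e-05). PSME1 had 279 and 290.1 TPM for sgMETTL1.3, 289 and 299.6 for sgMETTL1.6, and 283 and 278 for sgNS and did not pass (log2 change 0.045 ± 0.030 SE, adjusted p = 0.22). PSME1 over PSME2 gave a ratio of 0.716 and 0.763 for sgMETTL1.3, 0.784 and 0.790 for sgMETTL1.6, and 0.855 and 0.828 for sgNS, lower in every guide library, with no test made. GENCODE lists 2 pseudogenes named after PSME2. PSMF1, known as an inhibitor of the core in vitro, had 29.7 and 27.4 TPM for sgMETTL1.3, 25.6 and 26.6 for sgMETTL1.6, and 22.8 and 24.1 for sgNS (log2 change 0.21 ± 0.050 SE, adjusted p = 0.0027). Its 4 guide libraries exceeded both controls, but the call was lost without sgNS replicate 1 (adjusted p = 0.053).

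Of the 5 chaperones that assemble the core, 2 rose, 1 fell and 2 did not pass over both guides. These shares were near the 32.6% of all genes that rose and the 26.8% that fell. POMP, which completes the beta rings and is then degraded by the new core, had 246 and 248 TPM for sgMETTL1.3, 259 and 244 for sgMETTL1.6, and 205 and 201 for sgNS, clear above both controls (log2 change 0.29 ± 0.032 SE, adjusted p = 4.6e-06). PSMG3, which works with PSMG4 on the alpha ring, had 134 and 142 TPM for sgMETTL1.3, 127 and 130.0 for sgMETTL1.6, and 114 and 117 for sgNS (log2 change 0.20 ± 0.035 SE, adjusted p = 0.00029). PSMG4 had 38.7 and 39.6 TPM for sgMETTL1.3, 34.0 and 43.2 for sgMETTL1.6, and 32.5 and 36.2 for sgNS; sgMETTL1.6 replicate 1 lay inside the range of the controls and the other guide libraries above it (log2 change 0.17 ± 0.075 SE, adjusted p = 0.067, and 0.00038 without that library). PSMG1 and PSMG2 form a pair that starts the alpha ring. PSMG2 had 157 and 157 TPM for sgMETTL1.3, 175 and 167 for sgMETTL1.6, and 178 and 171 for sgNS (log2 change -0.091 ± 0.033 SE, adjusted p = 0.031). With sgMETTL1.6 alone it did not pass limma's test (adjusted p = 0.54). Over both guides its call was lost without the filter (adjusted p = 0.062), without the variance trend (0.10) and with only the groups compared (0.20). Its sgMETTL1.6 libraries overlapped the controls, and the call was lost without sgNS replicate 1 (adjusted p = 0.29) and without 3 of the 4 guide libraries when each was left out (0.060 to 0.080), all but sgMETTL1.6 replicate 1. PSMG1 had 138 and 131 TPM for sgMETTL1.3, 141 and 137 for sgMETTL1.6, and 145 and 143 for sgNS, below both controls in every guide library, and did not pass (log2 change -0.075 ± 0.034 SE, adjusted p = 0.077); it was called lower with median-ratio scaling (0.031), quantile scaling (0.017), without ribosomal protein genes (0.019) and without sgMETTL1.3 replicate 1 (0.042).

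PSMC3IP, the recombination factor, had the deepest fall of the 49 genes. It had 13.1 and 13.5 TPM for sgMETTL1.3, 13.9 and 13.9 for sgMETTL1.6, and 24.0 and 21.4 for sgNS (log2 change -0.69 ± 0.056 SE, adjusted p = 3.3e-07), with every guide library below both controls. It is counted among the 6 that fell, so 5 of 46 proteasome parts fell and 26 rose.

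The guides were next set against each other, which tests whether the responses differ. Of 47 genes, 4 were higher with sgMETTL1.3 than with sgMETTL1.6 (8.51%, against 15.8% of all genes), 3 were lower (6.38%, against 7.23%) and 40 did not pass; 23.0% of all genes passed in either direction. PSMA6 had the clearest difference, -0.20 (95% interval -0.26 to -0.14, adjusted p = 0.00059), with the guides on opposite sides of sgNS. This difference passed under every alternative run. PSMD10 (-0.17, adjusted p = 0.020) and PSMG2 (-0.12, adjusted p = 0.038) were also lower with sgMETTL1.3. Higher with sgMETTL1.3 were PSMD1 (0.16, adjusted p = 0.017), PSMD2 (0.11, adjusted p = 0.034), PSMD3 (0.11, adjusted p = 0.048) and PSME4 (0.14, adjusted p = 0.045). None of these 4 passed with median-ratio scaling or without ribosomal protein genes, and all genes together had a median of 0.05 in this contrast. Single libraries also decided them. Without sgMETTL1.3 replicate 1 none of the 4 passed, and without sgMETTL1.3 replicate 2 only PSMD1 did. Without sgMETTL1.6 replicate 1 PSMD1 and PSME4 did, without sgMETTL1.6 replicate 2 only PSMD3 did, and without either of the sgNS libraries PSMD1 and PSMD2 did. PSMD10 was lost without sgMETTL1.3 replicate 2 or sgMETTL1.6 replicate 1, and PSMG2 without any library but sgMETTL1.6 replicate 2. PSMD3 had 158 and 162 TPM for sgMETTL1.3, 145 and 150.2 for sgMETTL1.6, and 126 and 130.0 for sgNS, both sgMETTL1.3 libraries above the rest. Against sgNS, 28 of 47 genes rose and 7 fell with sgMETTL1.3 (59.6%, against 34.3% of all genes called higher, and 14.9%, against 24.2% called lower, 58.5% in all). With sgMETTL1.6, 26 rose and 5 fell (55.3%, against 25.7% of all genes, and 10.6%, against 25.3%, 51.0% in all). Both comparisons use the same sgNS libraries. For the constitutive beta ring the differences between the guides ran from -0.026 to 0.059 and none of 7 passed; PSMB2 had a log2 difference of -0.026 (95% interval -0.11 to 0.057), PSMB5 had a log2 difference of 0.059 (95% interval -0.027 to 0.14) and PSMB6 had a log2 difference of 0.032 (95% interval -0.082 to 0.15).

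**Figure D4:**
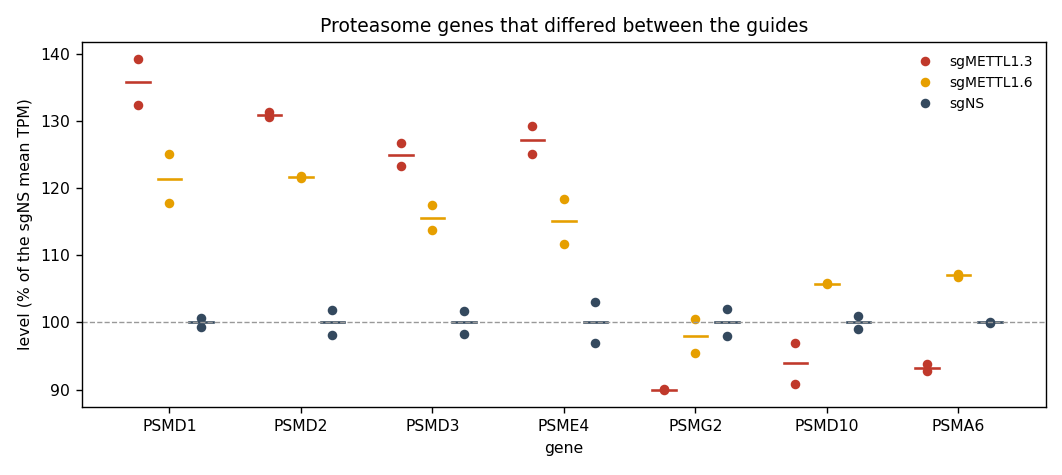
Level in each library, as a percentage of the sgNS mean TPM, of the 7 proteasome genes that differed between the guides at an adjusted p under 0.05; bars are group means. For PSMA6 and PSMD10 the sgMETTL1.3 libraries lie below both sgNS libraries and the sgMETTL1.6 libraries above them.

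Of 14 other genes whose products bind the proteasome, 7 rose, 3 fell and 4 did not pass (median log2 change 0.10), where 32.6% of all genes rose and 26.8% fell. PAAF1, an ATPase-binding assembly factor, had 54.1 and 50.9 TPM for sgMETTL1.3, 48.0 and 45.4 for sgMETTL1.6, and 36.2 and 36.1 for sgNS (log2 change 0.44 ± 0.043 SE, adjusted p = 1.7e-06). SHFM1, the older symbol of the small lid subunit SEM1, had 528 and 492 TPM for sgMETTL1.3, 520.1 and 510.2 for sgMETTL1.6, and 418 and 420.1 for sgNS (log2 change 0.29 ± 0.030 SE, adjusted p = 3.6e-06). USP14, a deubiquitinase of the base, rose by 0.28 (adjusted p = 3.0e-05). AKIRIN2, which carries proteasomes into the nucleus, fell, with 108 and 104 TPM for sgMETTL1.3, 103 and 99.8 for sgMETTL1.6, and 130.0 and 128 for sgNS (log2 change -0.31 ± 0.033 SE, adjusted p = 4.0e-06). Of 12 genes for ubiquitin and its shuttles, 5 rose, 3 fell and 4 did not pass (median -0.0074), shares near those of all genes. The count of 3 was 1 without sgMETTL1.3 replicate 2, sgNS replicate 1 or the variance trend, and 0 without sgNS replicate 2 or with only the groups compared. UBB, a polyubiquitin gene, had 1276 and 1299 TPM for sgMETTL1.3, 1308 and 1352 for sgMETTL1.6, and 1182 and 1187 for sgNS (log2 change 0.14 ± 0.023 SE, adjusted p = 0.00016), all guide libraries above both controls. The shuttle factors UBQLN4 and RAD23B rose by 0.34 and 0.17 (adjusted p = 1.0e-05 and 0.00069).

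NFE2L1, the known activator of proteasome genes, fell while most subunits rose. It had 142 and 141 TPM for sgMETTL1.3, 118 and 120.2 for sgMETTL1.6, and 231 and 239.7 for sgNS, every guide library far below both controls (log2 change -0.85 ± 0.031 SE, adjusted p = 1.2e-10; ENSG00000082641.15, chr17:48048329-48061487). NFE2L1 is matured after translation, and its mRNA level does not report the amount of active protein. Of 14 genes of its processing route and partners, 7 rose, 5 fell and 2 did not pass (median 0.093), again where 32.6% of all genes rose and 26.8% fell. NFE2L2, a related factor, had 142 and 136 TPM for sgMETTL1.3, 129.6 and 126 for sgMETTL1.6, and 153 and 152 for sgNS (log2 change -0.19 ± 0.033 SE, adjusted p = 0.00021). VCP, the p97 ATPase that extracts NFE2L1 from the endoplasmic reticulum, rose, with 282 and 275 TPM for sgMETTL1.3, 270.3 and 268 for sgMETTL1.6, and 219 and 227 for sgNS (log2 change 0.30 ± 0.029 SE, adjusted p = 2.1e-06). NSFL1C, a cofactor of p97, rose by 0.35 (adjusted p = 2.7e-05), and SEL1L, of the endoplasmic reticulum ubiquitin ligase, had a log2 change of -0.36 (adjusted p = 6.0e-06).

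Of 7 genes of interferon control and peptide supply, 1 rose, 4 fell and 2 did not pass (median -0.11), where 32.6% of all genes rose and 26.8% fell. The count of 4 was 2 without sgNS replicate 1 or without the filter, and 1 without sgNS replicate 2 or with only the groups compared. TAP1, a subunit of the peptide transporter, had 80.5 and 83.2 TPM for sgMETTL1.3, 69.6 and 69.7 for sgMETTL1.6, and 64.1 and 65.9 for sgNS (log2 change 0.21 ± 0.036 SE, adjusted p = 0.00020); its call was lost with only the groups compared (adjusted p = 0.053). B2M, the light chain of class I molecules, had 4538 and 4486 TPM for sgMETTL1.3, 5122 and 4834 for sgMETTL1.6, and 5628 and 5362 for sgNS (log2 change -0.21 ± 0.026 SE, adjusted p = 1.4e-05). IRF1, a factor that drives immunoproteasome genes, fell slightly. It had 22.1 and 21.2 TPM for sgMETTL1.3, 19.4 and 19.6 for sgMETTL1.6, and 22.9 and 23.2 for sgNS (log2 change -0.16 ± 0.046 SE, adjusted p = 0.0097), a call lost without sgNS replicate 2 (adjusted p = 0.070).

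**Figure D5:**
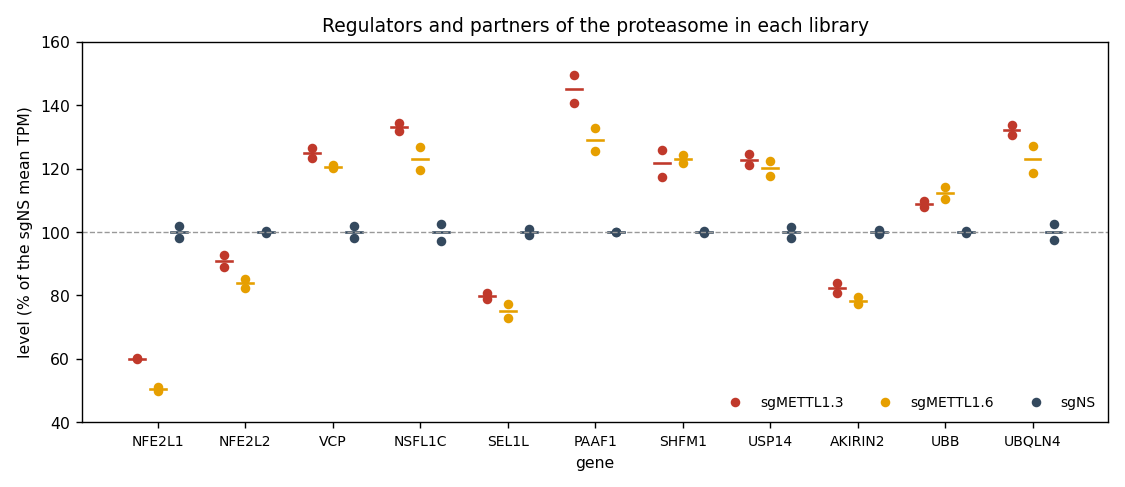
Level in each library, as a percentage of the sgNS mean TPM, of pathway genes named in the text, with sgMETTL1.3, sgMETTL1.6 and sgNS from left to right; bars are group means. NFE2L1 lies lower in all 4 guide libraries than in both sgNS libraries, and VCP lies higher.

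Promoter windows of 250 bases were at hand for 43 of the 49 genes and for 27305 windows in all, and were searched on both strands for 8 motifs. PSMA7, PSMB1, PSMB6, PSMB7, PSMD4 and PSMG3 had no entry, and each of them rose over both guides. The windows at hand thus leave out only genes that rose. TGACNNNGC was in 10 of the 43 (23.3%), against 11.0% of all windows and 12.3% of those of tested genes. Those 10 included 5 genes that rose (PSMB3, PSMD3, PSMD12, PSME2 and PSME4), 4 that did not pass (PSMD5, PSMD9, PSME1 and PSMG1) and 1 that fell (PSMG2). Whether the motif goes with the direction of change was not tested. CCGGAAG, bound by ETS factors, was in 11 (25.6%), against 8.82% of all windows and 17.3% of those of tested genes. The core of the interferon-stimulated response element was in 5 (11.6%), against 3.07% of all windows and 2.39% of those of tested genes: PSMA4, PSMB4, PSMB10, PSME2 and PSMG4. CCAAT was in 18 (41.9%), against 33.0% of all windows and 35.8% of those of tested genes, and CACGTG in 3 (6.98%), above the 6.49% of all windows but below the 9.42% of tested genes. TTCNNNGAA, the interferon GAS element, was in 5 (11.6%), against 6.78% and 5.62%, and TGANGCAA, the core of the amino acid response element, in 1 (2.33%), against 2.90% and 2.28%. The heat shock element was in none, against 0.439% of all windows and 0.315% of those of tested genes. These motifs can overlap each other, and the shares are descriptions without a test.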

How the data were processed

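Poly(A)-selected RNA of 6 libraries was sequenced, 2 for each of 3 groups. The authors deposited TPM, 1 row for each of 18806 gene symbols and 1 column per library, made with RSEM 1.2.31 on GRCh38 per the submitters' processing notes; neither aligner nor annotation is given in the sources used here. RSEM divides reads among similar transcripts by a model, and TPM fixes each library's total, so abundant genes that change move the rest. Without the depth, no counting interval is given. Column names matched 1 sample each, with 0 left unmapped; they also carry the letters EV, which the labels leave unexplained.

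limma 3.58.1 in R 4.3.3 was run on log2(TPM + 1) of the 10911 genes whose mean reached 1 TPM. All groups entered 1 model with a variance trend (3 residual and 9.84 prior degrees of freedom). Contrasts set the guides together and one by one against sgNS, and sgMETTL1.3 against sgMETTL1.6. P-values are two-sided and Benjamini-Hochberg adjusted over all genes tested, and fold changes on this scale understate low genes. The script was tested on simulated data, for both guides against sgNS. It recovered 15 of 50 changes of 1.1-fold, 37 of 50 of 1.2-fold and all 50 of 1.5-fold. Of 10711 unchanged genes, 9 were called. Far fewer genes changed there than passed here, so these shares do not carry over directly. A gene that did not pass can still have changed by a small amount. The genes and lists were chosen with earlier results of these data known. Every gene of the family may be named; library values are given for the catalytic subunits, activators and core chaperones, the 3 lowest p of each other class, those that fell, and those that differed between guides; of each pathway list, the 4 lowest p that passed and the control factors NFE2L1, NFE2L2 and IRF1. Some genes that this rule would name are not reported here. Alternatives were other pseudocounts (0.1 and 5), filters, scalings, variance models and samples fitted, a block for the replicate number, and leaving out each library. Replicate numbers were not treated as pairs, since same-numbered libraries did not deviate together in every pair of groups. Promoter windows are from RefSeq on GRCh38.p14, the first listed for each gene, whose start can differ from GENCODE's; 43 of 49 genes matched.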

Additional observations from a re-analysis of the deposited data

Results flagged for a closer look

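By limma's direct test of sgMETTL1.3 against sgMETTL1.6, 7 proteasome genes passed. Of the 47 tested, 8.51% were higher and 6.38% lower, against 15.8% and 7.23% of all genes. Of the 7, only PSMA6 passed under every alternative run. PSMA6 differed by -0.20 on the log2 scale, PSMD10 by -0.17 and PSMG2 by -0.12. PSMD1 differed by 0.16, PSME4 by 0.14, PSMD3 by 0.11 (SE 0.038) and PSMD2 by 0.11 (SE 0.033). METTL1 transcript levels also differed between these libraries, by 0.57 (adjusted p = 0.00018), and its part in these differences was not tested. With 2 libraries in each group, no single library was tested for standing apart.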

How the results depend on the processing

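Depth is unknown and each group holds 2 libraries, so small changes rest on single libraries, chiefly the controls. The 26 genes higher over both guides stayed between 23 and 28 under every alternative, and the calls of the 7 constitutive beta subunits held in each but for PSMB7 without sgNS replicate 1. Of 6 genes lower over both guides, 3 were called without the variance trend and 3 with only the groups compared; leaving out a library gave 3 to 5. Of 7 lower with sgMETTL1.3, 3 were called without the trend and 3 to 7 on leaving out a library; of 5 lower with sgMETTL1.6, 3 and 3 to 5. Between the guides, the count of genes higher, 4, was 0 with no filter, with median-ratio scaling, without ribosomal protein genes and without the trend, 2 with only the groups compared, and 0 to 4 on leaving out a library, not always the same genes. The count lower, 3, was 1 with no filter and 1 without the trend, and 1 to 3 on leaving out a library. The ratio of summed TPM, 1.09, became 1.07 with median-ratio scaling, 1.07 with quantile normalization and 1.06 without ribosomal protein genes. The ratio of PSMB10 over PSMB7, guides over sgNS, ranged from 0.947 to 1.06 on leaving out a library, and that of non-ATPases over ATPases from 1.07 to 1.09. The cause was not tested.

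Values near 0 changed sign. PSMA6 became 0.0046 with quantile normalization. On leaving out a library, PSMA6 ranged from -0.0054 to 0.0031, PSMC2 from -0.039 to 0.013, PSMD10 from -0.029 to 0.018, PSMD9 from -0.016 to 0.12 and METTL1 from -0.12 to 0.022. PSMC6 became -0.0097 with quantile normalization and -0.0078 without ribosomal protein genes. With the replicate number as a block, 28 genes were higher and 7 lower over both guides, and 10 were higher and 4 lower between the guides. PSMB8 (adjusted p = 0.030) and PSMG4 (0.016) were then called higher and PSMG1 (0.021) lower. Replicate deviations correlated at 0.15 and 0.21 between sgMETTL1.6 and the other groups and at -0.0050 between sgMETTL1.3 and sgNS, so the numbers were not taken to pair the libraries.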
